A study of Mus musculus with 22 samples.

Results

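Interferon-stimulated genes are the genes that cells switch on when an interferon binds its receptor. A list of 46 of them, matched by symbol regardless of letter case, was followed through 22 mouse liver tumours. All 46 were found among the 24063 genes of a first set of 12 tumours and the 24019 genes of a second set of 10, and all 46 passed the filter on low values in both, though in set 2 Socs1 did so only through the lucOS p53 tumours. By role the list held 4 sensors of foreign or displaced nucleic acid, 6 genes of signalling and feedback, 4 of the ISG15 and ADP-ribosylation systems, 21 antiviral effectors and 11 GTPases. The first 35 genes are called the type I class below, and the 11 GTPases, of the IRG (6 genes) and GBP (5 genes) families, form the class that interferon γ induces most strongly.

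The tumours were raised in C57BL/6 mice by injecting plasmids into the tail vein under high pressure (hydrodynamic delivery), which sends them mainly into hepatocytes, and no tumour was treated. Every tumour carried MYC, so MYC is shared by all groups. The partner was either p53 loss (labelled p53, and sgp53 in the sample titles of set 2) or β-catenin (labelled bcat in set 1 and CTNNB1 in set 2). Each pair came with luc or with lucOS, here read as luciferase alone and luciferase joined to model antigens that T cells recognise. Set 1 held 3 p53 tumours with luc and 3 with lucOS, and 4 β-catenin tumours with luc and 2 with lucOS, and set 2 held 4 lucOS p53 tumours, 3 β-catenin tumours with luc and 3 with lucOS. The labels give no ages and do not name the animals behind the tumours, so p-values measure the spread between these tumour samples. The series title concerns immune escape under β-catenin activation, and the comparison of drivers within luc and within lucOS addresses how the tumours of each driver differ.

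Type I interferons act through the receptor Ifnar1/Ifnar2 and the kinases Jak1 and Tyk2 to assemble a complex with Stat2 and Irf9 that binds the interferon-stimulated response element (ISRE). Interferon γ, made mostly by T and NK cells, acts through Ifngr1/Ifngr2, Jak1 and Jak2 and leads to binding at the γ-activated sequence (GAS). Many genes of the list answer to both, and Irf1, itself induced by interferon γ, also binds ISRE-like elements.

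Both elements were searched in RefSeq promoters (build GRCm38.p6, 250 bases before to 50 bases after the start), which were present for 34 of the 46 genes. The ISRE core was taken as GAAANNGAAA and the GAS core as TTCNNNGAA, on both strands, and a match is a description of the letters and no measured binding. An ISRE core stood in 21 of the 34 promoters (61.8%), against 3.99% of the promoters of all 27025 genes in the table. A GAS core stood in 11 of 34 (32.4%), against 9.55% of all genes. Among the GTPases with a promoter, 9 of 9 had the ISRE core and 6 of 9 the GAS core, and in the type I class the counts were 12 of 25 and 5 of 25.

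The GTPase genes Tgtp1, Tgtp2, Igtp and Irgm2, all on chromosome 11, shared an arrangement in which a GAS core ended a few bases before an ISRE core. The 51-base stretches are shown because these genes are followed below, with the cores in capitals and each read 5′ to 3′ on the strand of its gene. Tgtp1 is chr11:48992299-48992349 (minus strand), Tgtp2 chr11:49064258-49064308 (minus strand), Igtp chr11:58199496-58199546 (plus strand) and Irgm2 chr11:58214887-58214937 (plus strand).
Tgtp1: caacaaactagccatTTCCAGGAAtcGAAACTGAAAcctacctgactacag
Tgtp2: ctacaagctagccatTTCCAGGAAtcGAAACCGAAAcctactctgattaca
Igtp: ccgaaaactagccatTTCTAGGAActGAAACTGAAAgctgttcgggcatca
Irgm2: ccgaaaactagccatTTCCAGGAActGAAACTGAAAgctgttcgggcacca
Igtp and Irgm2 had the same base at 49 of the 51 positions, and Tgtp1 and Tgtp2 at 39. The ISRE core began 77 bases before the start in Tgtp1, 70 in Tgtp2, 34 in Igtp and 64 in Irgm2.

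For the type I class, the stretches with the ISRE cores of Isg15, Ifit1, Ifit3 and Socs1 are shown, because these genes changed in set 2 below. Isg15 is chr4:156200860-156200911 (minus strand), Ifit1 chr19:34640770-34640828 and Ifit3 chr19:34583358-34583431 (both plus strand), and Socs1 chr16:10785589-10785634 (minus strand). Cores on the opposite strand read TTTCNNTTTC.
Isg15: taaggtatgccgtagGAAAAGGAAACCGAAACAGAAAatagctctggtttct
Ifit1: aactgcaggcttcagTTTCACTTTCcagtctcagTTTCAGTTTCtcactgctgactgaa
Ifit3: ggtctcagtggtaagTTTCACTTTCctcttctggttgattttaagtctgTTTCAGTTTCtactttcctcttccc
Socs1: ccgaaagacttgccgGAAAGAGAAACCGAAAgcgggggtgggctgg
In Isg15, 3 overlapping ISRE cores ran together, and Ifit1 and Ifit3 each had 2 that were set apart. Bst2, which changed among the set 1 luc tumours, had overlapping ISRE cores joined to a GAS core (chr8:71537572-71537623, minus strand).
Bst2: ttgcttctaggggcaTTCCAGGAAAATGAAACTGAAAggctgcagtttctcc

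Levels are the authors' deposited values, reads divided by 1 factor per tumour. Total reads over genes were 33.7 to 54.9 M per tumour in set 1 and 33.6 to 50.1 M in set 2. The sets were scaled apart, so tumours are compared only within a set. Differences are on the log2(value + 1) scale, which understates changes of low genes, and come from limma fitted on every gene of a set, with Benjamini-Hochberg adjustment over all genes and a call at an adjusted p under 0.05. The median gene of the whole table stood below 0 in each driver comparison, at -0.20 (set 1 luc), -0.15 (set 1 lucOS) and -0.16 (set 2 lucOS), and TMM scaling, which centres on the bulk of genes, moved it to -0.012, -0.0011 and -0.0062. The driver labels matched the targeted pathway: Trp53 was higher in the β-catenin tumours in all 3 comparisons, with log2 differences of 1.27, 1.30 and 0.95 (adjusted p = 0.00346, 0.0214 and 0.0237), and so was Axin2, a direct Wnt target (6.82, 4.04 and 6.28). Ctnnb1 itself was not called in any of them.

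**Figure D1:**
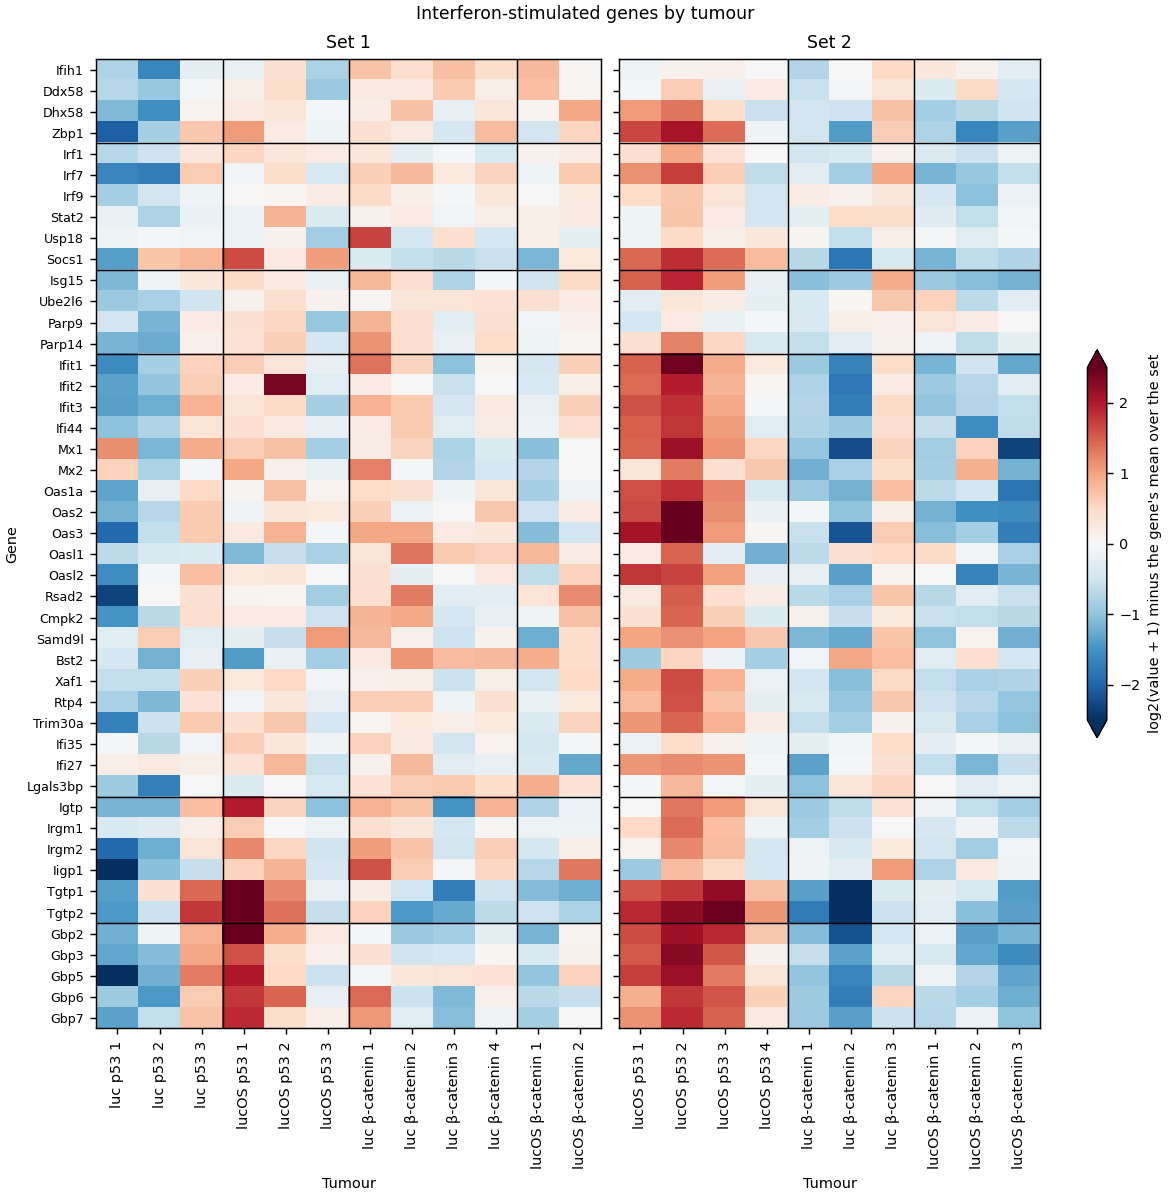
Each cell is the log2(value + 1) of a gene in a tumour minus that gene's mean over its set, with genes in rows by role (horizontal lines part sensors, signalling, ISG15 system, effectors, IRG and GBP families) and tumours in columns by group. In set 2 the lucOS p53 tumours 1 to 3 are red in most rows, lucOS p53 tumour 4 is paler, and luc β-catenin tumour 3 is redder than the other β-catenin tumours.

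The plot of all genes by tumour shows that tumours of the same group differed in the whole list at once. To put a value on this, the median deviation of each class from the mean of its set was taken in every tumour. In set 1, the type I class stood at -0.93, -0.74 and 0.29 in luc p53 tumours 1 to 3, and at 0.22, 0.29 and -0.21 in the lucOS p53 tumours. It stood at 0.42, 0.41, -0.18 and 0.23 in the luc β-catenin tumours and at -0.17 and 0.24 in the lucOS β-catenin tumours. Luc p53 tumours 1 and 2 were far below the other 10 tumours, and luc p53 tumour 3 was not. Luc p53 tumour 1 had the lowest value of the set for 24 of the 46 genes and luc p53 tumour 2 for 13.

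The GTPases of set 1 stood at -1.33, -1.05 and 0.76 in luc p53, 1.87, 0.55 and -0.20 in lucOS p53 tumours, and 0.58, -0.31, -0.85 and 0.06 in β-catenin tumours with luc and -0.72 and -0.01 in those with lucOS. The highest tumour of set 1 was lucOS p53 tumour 1 for 10 of the 11 GTPases, but for only 4 of the 35 type I genes. In set 2 the type I class stood at 0.92, 1.45, 0.62 and -0.12 in lucOS p53 tumours, -0.56, -0.81 and 0.47 in β-catenin tumours with luc and -0.57, -0.63 and -0.62 in those with lucOS. The GTPases of set 2 stood at 1.12, 1.77, 1.47 and 0.30, -0.90, -1.36 and -0.30 and -0.39, -0.73 and -1.16 in the same groups. The highest value of set 2 was in lucOS p53 tumour 2 for 37 of the 46 genes.

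**Figure D2:**
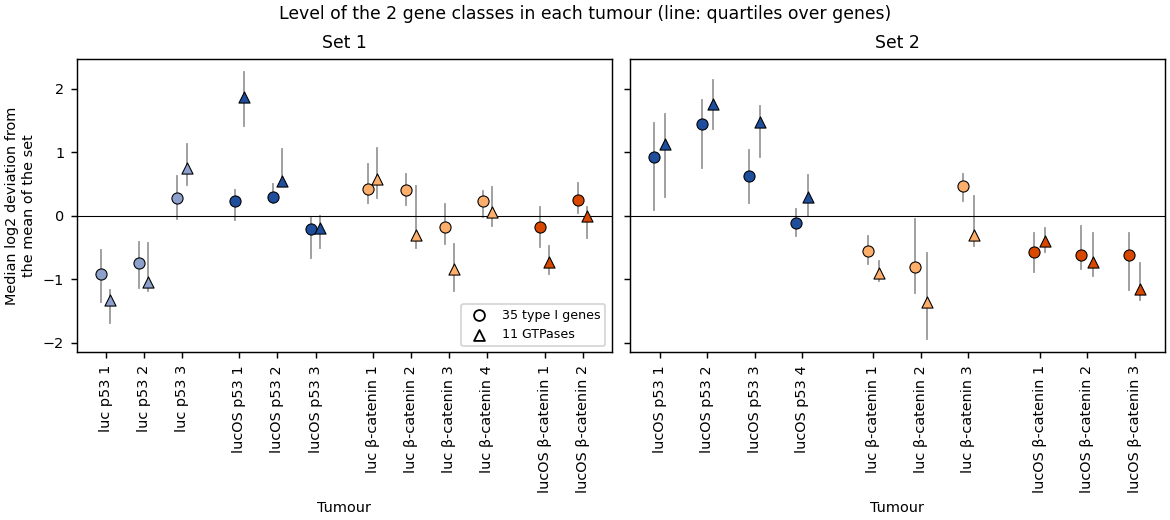
The vertical axis is the median log2 deviation from the mean of the set, over the 35 type I genes (circles) and the 11 GTPases (triangles), for each tumour on the horizontal axis, with lines for the quartiles over genes. In set 1 the GTPases of lucOS p53 tumour 1 (1.87) stand well above its type I genes (0.22), and in set 2 the 4 lucOS p53 tumours are the 4 highest for the GTPases.

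Among lucOS tumours of set 2, 21 of the 46 genes were lower with β-catenin than with p53 loss and 0 were higher, and the median difference was -1.58. Of all 15625 genes tested in that comparison, 10.9% were called lower and 6.08% higher (6.54% and 8.43% under TMM scaling). TMM scaling called 15 of the 46 genes lower, edgeR 16 and DESeq2 28. Of all 15625 genes, edgeR called 894 lower and 1336 higher, and DESeq2 1711 lower and 2131 higher, where limma called 1706 lower and 950 higher. Both classes took part: 14 of 35 type I genes fell (median -1.46) and 7 of 11 GTPases fell (median -2.09). All 5 GBPs were called lower, 2 of the 6 IRGs, 10 of the 21 antiviral effectors, 1 of the 4 sensors, 2 of the 6 signalling genes and 1 of the 4 ISG15 system genes. Every β-catenin tumour lay below every p53 tumour for 26 of the 46 genes, where the share over all genes was 22.5%, and above for 0 genes, where it was 10.3%. The sign of the median of each class was the same under TMM scaling (-1.30 for the type I class, -1.94 for the GTPases).

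The guanylate-binding proteins, GTPases that coat and break open microbe-containing vacuoles, were the family with a call for each member. Gbp2 had values of 845, 1199.7, 1019 and 439.6 in the 4 lucOS p53 tumours and 249, 107 and 122 in the 3 lucOS β-catenin tumours. The groups did not overlap, and p53 tumour 4 was the lowest of its group. The log2 difference of Gbp2 was -2.46 ± 0.49 (SE, adjusted p = 0.0128), a 5.51-fold lower level. Gbp3 had 599.6, 1003, 609.9 and 223 against 157, 83.8 and 68.3, with a difference of -2.46 ± 0.51 (SE, adjusted p = 0.0145). Gbp5, which promotes inflammasome assembly, had 209.9, 282, 155 and 77.2 against 57.5, 37.3 and 24.7, with -2.09 ± 0.49 (SE, adjusted p = 0.0219). In each of these genes the p53 tumour 4 value lay between the other p53 tumours and the β-catenin tumours.

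Gbp6 had values of 475, 868, 763 and 385 in p53 and 159, 142 and 109 in β-catenin tumours, with a log2 difference of -2.12 ± 0.50 (SE, adjusted p = 0.0215). Gbp7 had 687, 1154, 874 and 369.5 against 191, 283 and 156, with -1.80 ± 0.39 (SE, adjusted p = 0.0173). Neither gene's groups overlapped. The genes Gbp2, Gbp3, Gbp5 and Gbp7 lie side by side on chromosome 3, and Gbp6 lies on chromosome 5 beside the near-identical Gbp10, so its separate value is uncertain.

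The IRG proteins are the second family of GTPases that act on vacuoles. Tgtp2 had values of 609.6, 788, 921 and 354 in the lucOS p53 tumours and 136, 78.8 and 63.4 in the lucOS β-catenin tumours. Its difference of -2.82 ± 0.54 (SE, adjusted p = 0.0109), a 7.08-fold lower level, was the largest of the list. Tgtp1 had 682, 779, 1069 and 379 against 194, 173 and 85.6, with a difference of -2.25 ± 0.54 (SE, adjusted p = 0.0225). Tgtp1 and Tgtp2 are near-identical copies whose reads may be split between them, so their values are not independent of each other. Igtp, Irgm1, Irgm2 and Iigp1 were not called by limma, with log2 differences of -1.20, -1.02, -0.87 and -0.19 (adjusted p = 0.0627, 0.0613, 0.126 and 0.804), while DESeq2 called Igtp and Irgm1 lower (adjusted p = 0.0348 and 0.0349). Igtp and Irgm2 share the paired GAS and ISRE cores shown above with Tgtp1 and Tgtp2, and whether the 4 genes differed from each other was not tested.

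Of the effectors, the oligoadenylate synthetases make a short RNA-like signal that activates RNase L. Oas2 had values of 339, 621, 239.8 and 95.1 in p53 and 46.6, 36.5 and 34.6 in β-catenin tumours, with a log2 difference of -2.73 ± 0.57 (SE, adjusted p = 0.0151). Oas3 had 312, 437, 153 and 74.9 against 34.2, 39.8 and 21.4, with -2.65 ± 0.73 (SE, adjusted p = 0.0361). In both genes p53 tumour 2 was the highest and all p53 tumours lay above all lucOS β-catenin tumours. Oasl1, a relative that restrains Irf7 production, was not called in set 2 (log2 -0.18, adjusted p = 0.855).

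Ifit1, which binds viral RNA that lacks the host's cap mark, had values of 407, 792, 278 and 175 against 64.8, 103 and 60.1, with a log2 difference of -2.25 ± 0.59 (SE, adjusted p = 0.0311). Trim30a, a TRIM protein that dampens inflammatory signalling, had 517, 659, 438 and 272 against 181, 136 and 118, with -1.64 ± 0.35 (SE, adjusted p = 0.0160). Ifi27 had 4903, 5203, 4968 and 2249 against 1494, 1033 and 1531, with -1.62 ± 0.42 (SE, adjusted p = 0.0295). For Ifi27, p53 tumours 1 to 3 lay close together and p53 tumour 4 stood well below them, though above all lucOS β-catenin tumours. Ifit3, Ifi44, Oasl2, Xaf1 and Samd9l were also called lower, with log2 differences from -1.55 to -2.02. None of these 5 was called under TMM scaling, and edgeR called only Ifi44.

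The effectors that limma called in no driver comparison were Ifit2, Mx1, Mx2, Oas1a, Rsad2 (viperin), Cmpk2, Rtp4 and Ifi35. Their set 2 lucOS differences ran from -2.18 for Mx1 to -0.22 for Ifi35. The next lowest adjusted p values were those of Ifit2 (0.0531), Oas1a (0.0560) and Rtp4 (0.0573), just past the threshold. DESeq2 called Ifit2, Oas1a, Cmpk2 and Rtp4 lower in set 2. Mx1 is known to be disrupted by a deletion in C57BL/6 mice, and Mx2 is annotated as a polymorphic pseudogene. Oas1a has the near-identical neighbour Oas1g, and Ifit3 has Ifit3b, so the separate values of Oas1a and Ifit3 are uncertain.

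In the ISG15 system, Isg15, the ubiquitin-like protein that gives it its name, had values of 389, 523, 288 and 121 in p53 and 72.8, 66.3 and 60.9 in β-catenin tumours. The difference of Isg15 was -2.11 ± 0.58 (SE, adjusted p = 0.0351). Ube2l6, the enzyme that passes ISG15 to its targets, was not called (-0.12, adjusted p = 0.822, and 0.04 under TMM scaling), nor were Parp9 (0.28) and Parp14 (-0.76), ADP-ribosyltransferases of antiviral signalling. Isg15 was thus the only gene of the 4 with a call.

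Among signalling genes, Socs1, the feedback inhibitor of the JAK kinases, had values of 44.7, 59.8, 43.8 and 28.5 in p53 and 6.55, 9.95 and 9.05 in β-catenin tumours. Socs1 was 4.66-fold lower, a log2 difference of -2.22 ± 0.45 (SE, adjusted p = 0.0140). All 3 lucOS β-catenin values were under the filter's minimum of 10, so the gene was tested only through the group where it was high, and its call is a description. Irf1 was called lower, close to the threshold, at -0.78 ± 0.24 (SE, adjusted p = 0.0499). It was not called under TMM scaling, by edgeR or by DESeq2. Irf7, Irf9, Stat2 and Usp18, which removes ISG15 and shuts down the receptor, were not called by limma (log2 -1.62, -0.78, -0.41 and -0.32), and DESeq2 called Irf7 lower. Of the sensors, Zbp1, which detects left-handed nucleic acid and can start necroptosis, had 276, 364, 229.8 and 79.6 against 50.2, 27.4 and 32.9, with -2.51 ± 0.60 (SE, adjusted p = 0.0228). The sensors of double-stranded RNA were not called by limma: Ifih1 (MDA5) differed by -0.01 (0.15 under TMM scaling), Ddx58 (RIG-I) by -0.25 and Dhx58 (LGP2) by -1.25. DESeq2 called Dhx58 lower (adjusted p = 0.0362).

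**Figure D3:**
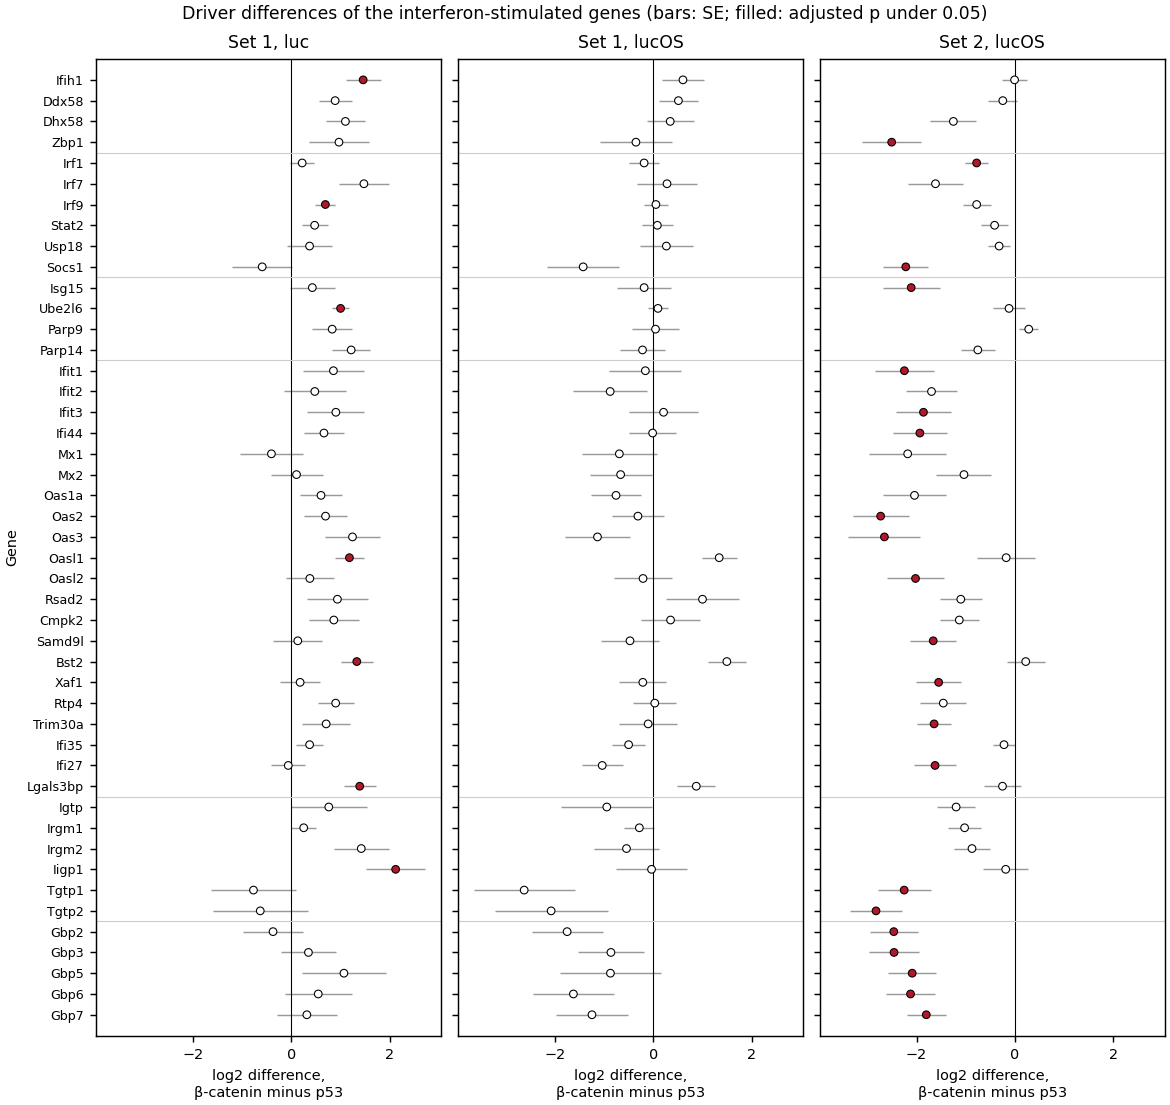
Points are the log2 differences (β-catenin minus p53) of the 46 genes in the 3 driver comparisons, with bars of 1 SE, and filled points passed the adjusted threshold. In set 2, 21 filled points lie left of 0, in the set 1 luc comparison 7 lie right of 0, and the set 1 lucOS comparison has none.

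The set 2 result rested on few tumours. The number of genes called lower ran from 4 without lucOS β-catenin tumour 3 to 30 without lucOS p53 tumour 4, and was 8, 7 and 6 without p53 tumours 1, 2 and 3 in turn and 12 and 13 without β-catenin tumours 1 and 2. Oas2, Gbp2 and Tgtp2 were called whichever tumour was left out, and so was Socs1, with the limit of the filter given above. In set 2 the sample names begin with AL for p53 tumours 1 to 3, and with JAX for p53 tumour 4 and all β-catenin tumours, so the driver and the name prefix cannot be told apart beyond p53 tumour 4.

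Within the tumours named JAX, p53 tumour 4 was compared with the 3 lucOS β-catenin tumours. This lone tumour gives no spread of its own, so only sizes of difference are given. The median difference was -0.63 over the 45 genes tested and -0.15 over all 15083 genes tested. The p53 tumour 4 values lay above all 3 lucOS β-catenin tumours for 27 of 46 genes, against 5813 of the 15625 genes tested. They lay below all 3 AL-named p53 tumours for 36 of 46 genes, against 4321 of 15625. The median difference of the list was -0.64 against p53 tumour 4 and -1.82 against the AL-named p53 tumours.

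Markers of T and NK cells, the usual source of interferon γ, moved with the list in set 2. Of 10 such markers, 9 were called lower with β-catenin (Cd3e, Cd3g, Cd8a, Nkg7, Klrd1, Gzma, Gzmb, Prf1 and Ncr1). Their summed value was 1082, 1029, 849.7 and 581 in the lucOS p53 tumours, 151, 142 and 146 in the lucOS β-catenin tumours and 97.7, 89.2 and 252 in the luc β-catenin tumours. The p53 tumour 4 sum was the lowest of its group, as for most genes of the list. The pan-leukocyte gene Ptprc was lower too, as were Emr1 and Csf1r of 6 macrophage markers, while Clec4f of liver macrophages was higher. Siglech of plasmacytoid dendritic cells, which are known for making type I interferon, was also lower. The summed value of 3 markers of these cells was 39.2 to 72.6 in lucOS p53 and 7.46 to 14.0 in lucOS β-catenin tumours. In lucOS β-catenin tumours 1 and 2 even this sum (8.73 and 7.46) was under the filter's minimum of 10, so the Siglech call is a description. Cxcr2 of 4 neutrophil markers and Pecam1 and Cdh5 of 5 endothelial markers were lower, and Dcn and Reln of 5 stellate cell and fibroblast markers were higher. None of these markers was at 0 throughout a group. The part of cell content in the result was not tested, and in bulk tissue fewer cells of a type and less RNA per cell cannot be told apart.

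**Figure D4:**
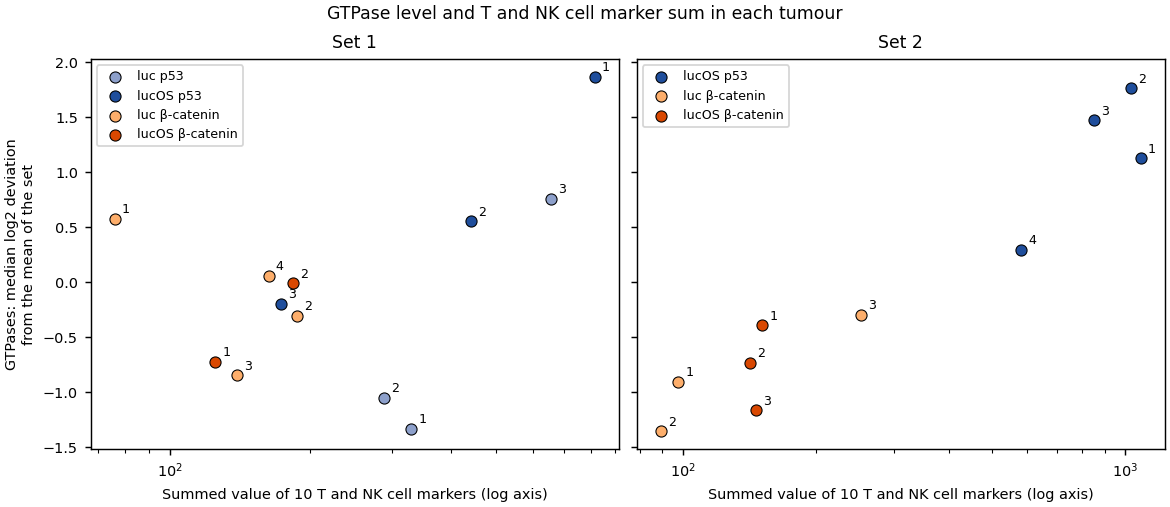
The horizontal axis (log scale) is the summed deposited value of 10 T and NK cell markers and the vertical axis the median log2 deviation of the 11 GTPases, with each point a tumour and its number. In set 2 the 4 lucOS p53 tumours (581 to 1082 on the horizontal axis) are apart from the 6 β-catenin tumours (89.2 to 252), and in set 1 luc p53 tumours 1 and 2 combine the lowest GTPase levels with marker sums above those of the β-catenin tumours.

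Among luc tumours of set 1, without the model antigen, the calls lay in the other direction: 7 of the 46 genes were called higher with β-catenin than with p53 loss and 0 lower, with a median difference of 0.69. Over all 16108 genes, 5.93% were called higher and 9.16% lower (7.58% and 4.23% under TMM scaling). The 7 called genes were 6 of 35 type I genes (class median 0.71) and 1 of 11 GTPases (class median 0.35), and 40 of the 46 genes had a difference above 0. The 4 β-catenin tumours were all higher than the 3 p53 tumours for 9 genes, where the share over all genes was 10.9%, and all lower for 0 genes, where it was 23.2%.

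Ube2l6 had values of 900.3, 975 and 1211 in the 3 luc p53 tumours and 1755, 2071, 2182.3 and 2188 in the 4 luc β-catenin tumours. The groups did not overlap and the spread within each was small. Its log2 difference was 1.0 ± 0.17 (SE, adjusted p = 0.00490), the smallest adjusted p of the list, and it was called whichever tumour was left out. Bst2 (tetherin), which holds budding virus particles on the cell surface, had 2166, 1265 and 2497 against 3388, 6199.5, 4886 and 5050.0, with 1.33 ± 0.32 (SE, adjusted p = 0.0224). Lgals3bp, a secreted glycoprotein that binds galectins, had 3195, 1801 and 5893 against 7561, 9183, 9308 and 7983, with 1.39 ± 0.32 (SE, adjusted p = 0.0182). In both genes all β-catenin tumours were above all p53 tumours.

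The sensor Ifih1 had values of 592, 325 and 869 in p53 and 1659, 1350.2, 1707 and 1377 in β-catenin tumours, with a log2 difference of 1.46 ± 0.36 (SE, adjusted p = 0.0229). Oasl1 had 205, 251 and 255 against 402, 820.2, 514 and 484, with 1.18 ± 0.30 (SE, adjusted p = 0.0252). Irf9, the DNA-binding part of the type I complex, was called at 0.69 ± 0.20 (SE, adjusted p = 0.0445). Ddx58 and Dhx58 had differences of 0.89 and 1.10 and were not called by limma (adjusted p = 0.0930 and 0.0839), while DESeq2 called both higher (adjusted p = 0.0283 and 0.0329). Parp14 was not called in the main fit but was called higher under TMM scaling (limma adjusted p = 0.0412) and by DESeq2 (adjusted p = 0.0131). DESeq2 called 11.7% of all genes higher and 8.83% lower here.

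Irf7, the factor that amplifies type I interferon production, had values of 197, 187 and 967 in p53 and 949.6, 1094, 743 and 913 in β-catenin tumours. Its difference, 1.47 ± 0.50 (SE, adjusted p = 0.0684), was the largest of the type I class and was not called. Luc p53 tumours 1 and 2 were low and luc p53 tumour 3 lay within the range of the β-catenin tumours.

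Of the GTPases, Iigp1 had values of 297, 932 and 1302 in p53 and 5809, 2997, 1901 and 2774 in β-catenin tumours, a log2 difference of 2.12 ± 0.60 (SE, adjusted p = 0.0388). Irgm2 had 238, 393 and 1153 against 1900.3, 1502, 657 and 1408, with 1.42 ± 0.56 (SE, adjusted p = 0.105), and Gbp5 6.79, 19.3 and 111 against 44.2, 54.6, 58.2 and 59.2, with 1.07 ± 0.85 (SE, adjusted p = 0.410). The last 2 were not called, and in each the groups overlapped through luc p53 tumour 3. Irgm2 and Igtp overlap on the same strand in the annotation, so their separate values are uncertain.

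The count of 7 depended on single tumours. It was 1 without luc p53 tumour 1 or without luc p53 tumour 2, and 12 without luc p53 tumour 3. It was 3 without luc β-catenin tumour 2, 2 without luc β-catenin tumour 3, and 5 without luc β-catenin tumour 1 or 4. The summed T and NK cell markers were 329, 287 and 658 in luc p53 and 75.9, 187, 139 and 163 in luc β-catenin tumours, the opposite direction to that of the list, and Gzma and Gzmb were called lower with β-catenin. The summed macrophage markers were 876, 3658 and 7989.6 in luc p53 and 6123, 9591, 8926 and 12965 in luc β-catenin tumours, lowest in luc p53 tumour 1, and Marco was called higher. The summed hepatocyte markers were 183679 to 448140 in luc p53 and 585165 to 729550 in luc β-catenin tumours, and Alb (albumin) was called higher. The summed bile duct markers were 585 to 5404 in luc p53 and 77.1 to 409 in luc β-catenin tumours, and Sox9 was called lower. Their part in the result was not tested.

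Among lucOS tumours of set 1, none of the 46 genes was called with limma, where 4.21% of all genes were called in either direction. Of all genes, 1.62% were called higher and 2.59% lower (1.97% and 1.22% under TMM scaling). With limma, 6 of the 46 genes had an unadjusted p under 0.05, against 3809 of all 16108 genes. Oasl1 was called by edgeR, which called 418 of all genes. Bst2, Oasl1 and Tgtp1 were called by DESeq2, the last as lower, where DESeq2 called 2053 of all genes. The type I median was -0.10, and 0.04 under TMM scaling, so its sign depended on the scaling. The GTPase median was -0.94, with 11 of 11 genes below 0 (10 of 11 under TMM scaling, where Iigp1 turned from -0.03 to 0.11).

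Tgtp1 had values of 667, 143 and 54.3 in the 3 lucOS p53 tumours and 28.6 and 26.2 in the 2 lucOS β-catenin tumours, with a log2 difference of -2.62 ± 1.02 (SE, adjusted p = 0.151). Tgtp2 had 594, 138 and 34.97 against 36.8 and 29.9, with -2.07 ± 1.15 (SE, adjusted p = 0.301), and Gbp2 1254, 416 and 259.5 against 99.2 and 233, with -1.75 ± 0.72 (SE, adjusted p = 0.171). The groups did not overlap for Tgtp1 and Gbp2 and overlapped for Tgtp2. Separation without overlap was common in this comparison of 3 with 2 tumours. With β-catenin lower it held for 8 of the 46 genes and 3915 of all 16108 genes. With β-catenin higher it held for 4 of the 46 and 2169 of all genes, so separation alone does not set a gene of the list apart. In all 3 genes the p53 tumours spread widely, from a high tumour 1 to a tumour 3 near the β-catenin tumours. The summed T and NK cell markers ran in the same order, 815, 442 and 173 in p53 tumours 1 to 3 and 125 and 183 in the β-catenin tumours. Sox9 was the only marker called here, as lower with β-catenin, and the summed bile duct markers were 667 to 3844 in p53 and 43.0 to 224 in β-catenin tumours.

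Of the type I class, Socs1 had 83.1, 30.9 and 55.2 against 11.3 and 31.1, with a log2 difference of -1.42 ± 0.73 (SE, adjusted p = 0.268) and groups that overlapped. Bst2 had 1090.5, 2530.1 and 1570.0 against 5402 and 3923, with 1.497 ± 0.39 (SE, adjusted p = 0.0536), and Oasl1 150.2, 216 and 184 against 577 and 369, with 1.34 ± 0.35 (SE, adjusted p = 0.0566). Bst2 and Oasl1 did not overlap between the groups, as was the case for 2169 of all 16108 genes with β-catenin higher. Both passed the threshold under TMM scaling (limma adjusted p = 0.0464 and 0.0459). Their differences were near those of the luc tumours, 1.33 and 1.18.

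**Figure D5:**
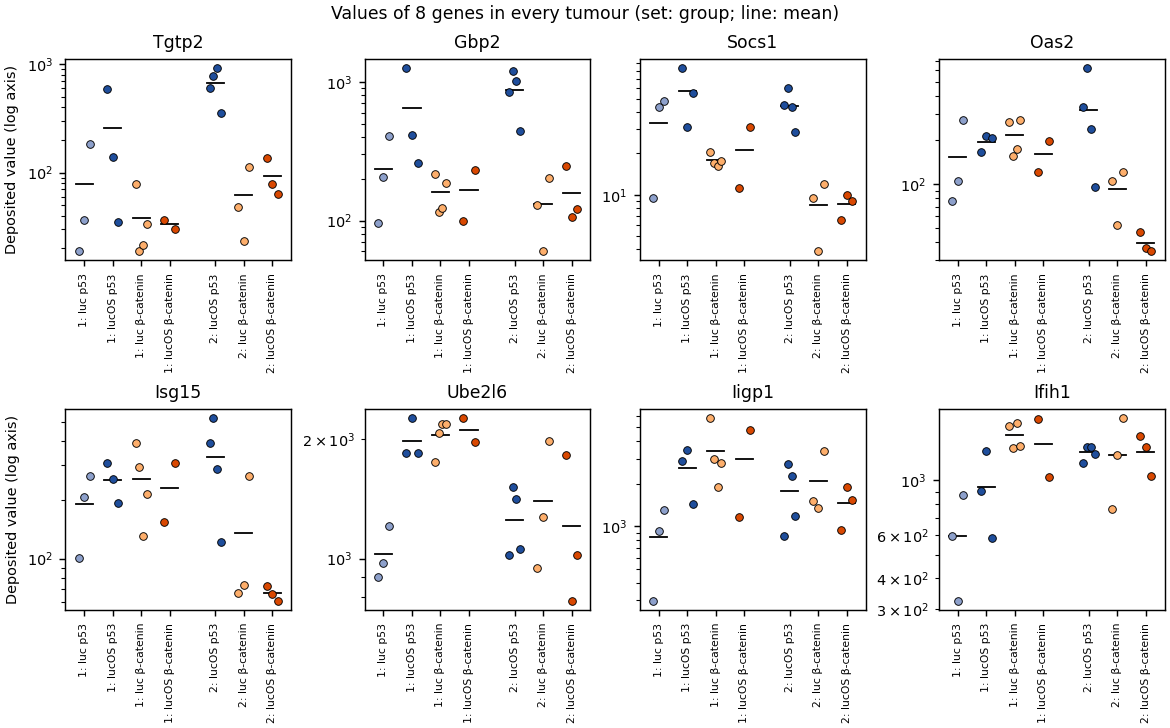
Deposited values (log axis) of 8 genes in each tumour, by set and group, with a line at the group mean. For Tgtp2, Gbp2, Socs1, Oas2 and Isg15 the 4 lucOS p53 tumours of set 2 lie above its 3 lucOS β-catenin tumours, and for Ube2l6, Iigp1 and Ifih1 the luc p53 group has the lowest mean of set 1.

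The genes that limma called in the set 1 luc comparison and in the set 2 lucOS comparison did not overlap: 0 of 7 and 0 of 21 were shared. DESeq2 called Dhx58 in both, higher in set 1 and lower in set 2. The 7 genes called higher in set 1 luc had set 2 lucOS differences from -0.78 to 0.22, with a median of -0.18. The 21 genes called lower in set 2 had set 1 luc differences from -0.77 to 1.24, with a median of 0.38, and set 1 lucOS differences from -2.62 to 0.21, with a median of -0.47. Of the promoters present, the ISRE core stood in 2 of 6 for the 7 genes, in 12 of 17 for the 21 genes and in 7 of 11 for the 18 genes called in neither. Whether the driver difference itself differed between lucOS and luc was tested in set 1 with an interaction term. No gene of the list was called (5 at an unadjusted p under 0.05, 0 called by edgeR or DESeq2), and over all genes 0.0% were (436 at an unadjusted p under 0.05, 0 called by edgeR, 17 by DESeq2). The set 1 luc and set 2 lucOS comparisons were not tested against each other, since the sets were scaled apart. The median interaction was -0.84 for the list and -1.70 for the GTPases, with all 11 GTPases below 0.

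The effect of the antigen within a driver had no call in the list. With p53 loss in set 1, lucOS minus luc had a median of 0.63 over the list and 1.35 over the GTPases, 11 of 11 of which were above 0. None was called with limma (7 at an unadjusted p under 0.05, 0 by edgeR, 1 by DESeq2), and 0.0% of all genes were (722 at an unadjusted p under 0.05, 0 by edgeR, 9 by DESeq2). The gene called by DESeq2 was Ube2l6, with 1839, 2259 and 1841 in lucOS against 900.3, 975 and 1211 in luc tumours and no overlap, where limma's difference was 0.95 ± 0.18 (SE, adjusted p = 0.911). Among β-catenin tumours the list median was -0.18 in set 1 and -0.23 in set 2. Again 0 genes of the list were called by limma, edgeR or DESeq2 in either set (1 at an unadjusted p under 0.05 in each), and limma called 0.0% of all genes in set 1 and 0.0% in set 2 (222 and 288 at an unadjusted p under 0.05, 0 and 0 by edgeR, 18 and 10 by DESeq2). These comparisons share their tumours with the driver comparisons above.

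The rest of the pathway was read from its own list. None of 6 ligand genes passed the filter on low values: Ifnb1 (interferon β) had at most 2 reads in any tumour, and Ifng had reads in 5 of 12 tumours of set 1 (at most 1) and in 7 of 10 of set 2 (at most 8). Ifnk (interferon κ) had reads in all 22 tumours, at most 14 in set 1 and 6 in set 2, and its highest value was 12.5 in lucOS p53 tumour 1 of set 1. Ifna1, Ifna2 and Ifna4 had 0 reads in all tumours, which allows up to 3 reads per tumour, a limit that covers counting error only. Of the other Ifna genes, some had values above 0: Ifna13 reached 0.85 (set 1 luc β-catenin), Ifna15 0.99 (set 2 lucOS p53) and Ifna7 0.82 (set 2 lucOS β-catenin). Of 6 receptor genes, Ifnlr1, the receptor chain for interferon λ, was higher with β-catenin in set 2, at 2.55 ± 0.74 (SE, adjusted p = 0.0424), and the other 5 were not called in any driver comparison. Its values were 59.3, 254, 27.9 and 21.4 in lucOS p53 and 208, 561 and 300.3 in lucOS β-catenin tumours, which overlapped at p53 tumour 2. The kinases Jak1, Jak2 and Tyk2 were not called in any driver comparison either.

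Of 10 genes of nucleic acid sensing, 2 were lower with β-catenin in set 2 and none higher. Of all genes, 10.9% were called lower and 6.08% higher, and the median difference of the 10 was 0.06. Mb21d1 (cGAS), the sensor of cytosolic DNA, had 230.0, 952, 219 and 197 against 53.9, 65.5 and 29.6, with -2.70 ± 0.59 (SE, adjusted p = 0.0166), and Tlr9, a receptor for microbial DNA, 105, 125, 106 and 53.5 against 29.8, 27.4 and 23.9, with -1.75 ± 0.37 (SE, adjusted p = 0.0150). Of 11 further genes that interferon γ induces, 9 were lower with β-catenin in set 2 and none higher, beside the 10.9% of all genes called lower. They were the chemokine Cxcl10, the MHC class II and class I activators Ciita and Nlrc5, the immunoproteasome subunits Psmb8 and Psmb9, the peptide transporter Tap1, the nitric oxide synthase Nos2, the checkpoint ligand Cd274 (PD-L1) and the protease inhibitor Serpina3g. Cxcl10 had 1709, 1581, 1144 and 1225 against 111, 99.5 and 250.1, with -3.30 ± 0.40 (SE, adjusted p = 0.00207), and Cd274 419, 697, 328 and 293 against 143, 134 and 105, with -1.69 ± 0.32 (SE, adjusted p = 0.0111). Both had p53 tumour 4 above every lucOS β-catenin tumour. In set 1, 0 of 10 tested genes of this group were called in either driver comparison.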

How the data were processed

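RNA-seq was made from total RNA of 22 liver tumours, as TruSeq libraries, per the labels' protocols. The authors used TopHat2, featureCounts and DESeq2 with build mm10, per the submitters' processing notes, and versions and strand were not given in the sources used here. The deposited values are a signal, whole read counts divided by 1 factor per tumour: dividing by each tumour's smallest value above 0 gave whole reads for 100% of values within 0.01. Set 1 lists transcripts, and each gene was read from its highest one by mean. In set 2, 27 rows whose names had become dates were left out.

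Testing required 10 or more in 2 (set 1) or 3 (set 2) tumours, which left 16108 and 15625 genes. Differences on log2(value + 1) were fitted with limma 3.58.1 (R 4.3.3, with a mean-variance trend), all groups of a set in 1 fit, two-sided, with Benjamini-Hochberg adjustment over all genes. Alternatives were TMM scaling, median centring, a pseudocount of 5, no filter and a filter at 50, edgeR 4.0.16 and DESeq2 1.42.0 on the recovered reads, only the groups compared, each tumour left out, summed transcripts (set 1) and JAX-named tumours (set 2). The scripts were tested on simulated data. The members and all lists were chosen with earlier results of these data known. Values in every tumour are given for the 20 genes with the smallest adjusted p among those called and the 3 largest differences of each class and comparison. Read depth bounds counting error only. Positions were read on GRCm38, the build of mm10.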

Additional observations from a re-analysis of the deposited data

Results flagged for a closer look

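Among 96 groups of 4 tumours tested, 4 held a tumour whose gap to its nearest neighbour exceeded Dixon's 95% critical value of 0.829 times the range of its group, and chance flags about 1 group in 20. In set 1, luc β-catenin tumour 3 had the highest Ddx58 value of its group (2289.7) and the lowest values of Xaf1 (89.5) and Igtp (201). In set 2, lucOS p53 tumour 4 had the lowest Ifi27 value of its group (2249).

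The driver difference of Rsad2 among lucOS tumours was 1.002 on the log2 scale in set 1 and -1.10 in set 2, with no overlap between the drivers in either set. All 46 genes were scanned for such opposite differences, also between other pairs of comparisons, and only Rsad2 was flagged. Of all genes, 2169 of 16108 were higher without overlap among set 1 lucOS tumours, and 3511 of 15625 lower in set 2. The difference of Rsad2 between the sets was not tested.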

How the results depend on the processing

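No called result changed sign under any alternative run, and among uncalled values the sign of the set 1 lucOS type I median turned under TMM scaling (-0.10 to 0.04). So did 9 small uncalled differences of single genes under TMM scaling or median centring: Ifi27 (set 1 luc), Ifi44, Trim30a and Iigp1 (set 1 lucOS), Ifih1 and Ube2l6 (set 2 lucOS), Xaf1 and Cmpk2 (antigen with β-catenin, set 1) and Ddx58 (the same, set 2). Leaving out 1 tumour at a time gave 1 to 12 called genes among set 1 luc tumours, 0 to 1 among set 1 lucOS tumours and 4 to 30 among set 2 lucOS tumours. In the set 1 lucOS comparison, TMM scaling called 2 genes, edgeR 1 and DESeq2 3, where limma called 0. Over all 16108 genes, TMM scaling called 514, edgeR 418, DESeq2 2053 and limma 678. In the set 2 lucOS comparison the JAX-named tumours held p53 as a single tumour. Their count of called genes fell and is not given, since that tumour has no spread of its own. The medians of that comparison moved to -0.54 (type I) and -1.02 (GTPases). Without lucOS β-catenin tumour 2 of set 1, the type I median for the antigen with β-catenin was -0.49. For the antigen among p53 tumours DESeq2 called 1 gene. The cause was not tested, beyond the fewer tumours that remain when some are left out. The other 57 counts of called genes under alternatives other than leaving out a tumour stayed within 1.5 times the main count. No paired analysis was possible because the labels carry no replicate numbers. The interferon ligands, at 0 to 14 reads per tumour, fell under the filter and were left out of the fits.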
